A study of Mus musculus with 6 samples.

Results

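The nuclear genes of the mitochondrial respiratory chain were examined in STRA8+ germ cells of the mouse testis with and without *Srsf1*, which encodes a splicing factor of the SR family. Members were the protein-coding rows whose symbols start with *Nduf*, *Uqcr*, *Cox4* to *Cox8* or *Atp5*, or are *Sdha* to *Sdhd*. This gave 94 of the 54532 genes in the table, and 91 of them were tested. They comprised 36 subunits of complex I, 8 complex I assembly factors (*Ndufaf1* to *Ndufaf8*), 4 subunits of complex II, 8 of complex III, 20 of complex IV and 17 rows of complex V. *Atp5s*, which encodes a coupling factor and not a subunit of the enzyme, was kept apart. *Ndufa4* and *Ndufa4l2*, named after complex I, were placed with complex IV, where the NDUFA4 protein belongs.

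Total RNA of STRA8+ cells was sequenced in 6 libraries. The genotype label of the 3 control libraries is Cre, and that of the 3 conditional knockout (cKO) libraries is a knockout of *Srsf1*. The treatment label is conditional knockout for all libraries, controls included. The labels give neither the promoter that drives Cre nor the age of the mice, and they do not say whether replicates were separate animals, so that p-values measure the spread between these libraries only.

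Oxidative phosphorylation is carried out by 5 complexes in the inner mitochondrial membrane. Complexes I and II take electrons from NADH and succinate, complex III passes them to cytochrome c, and complex IV hands them to oxygen, while complex V uses the resulting proton gradient to make ATP. Several subunits of complex IV have paralogs with tissue-restricted expression, and some of these, such as COX8C, COX6B2 and COX7B2, are known from testis and sperm. Male germ cells also have their own cytochrome c, encoded by *Cyct* beside the somatic gene *Cycs*.

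In the control libraries 16962222, 15364511 and 17310353 fragments were counted on genes, and in the cKO libraries 15326722, 14751933 and 14447887. Levels are given in FPKM (fragments per kilobase, normalised for gene length and library size), and values of single libraries in the order of replicates 1 to 3. *Srsf1* itself stood at 84.7, 45.2 and 51.9 FPKM in the controls and at 5.08, 4.94 and 5.17 FPKM in the cKO libraries. The log2 fold change was -3.29 ± 0.22 (SE, n = 3 per group, limma adjusted p = 5.6e-05), with every cKO library far below every control. Summed levels of 5 markers of differentiating spermatogonia (*Kit*, *Stra8*, *Dmrtb1*, *Sohlh1*, *Sohlh2*) ranged from 467 to 494 FPKM in control and from 448 to 523 FPKM in cKO libraries, and 5 markers of early meiotic prophase from 493 to 645 and from 503 to 658 FPKM. The 5 markers of undifferentiated spermatogonia summed to between 37.4 and 47.4 FPKM in control and between 38.5 and 46.0 FPKM in cKO libraries. In each of these 3 lists 1 of 5 markers was called lower, which were *Dmrtb1* (log2 fold change -1.35), *Spo11* (-1.01) and *Id4* (-1.30), in the order of the lists, and the *Spo11* call was lost with no filter on FPKM (adjusted p 0.053). The 5 markers of pachytene spermatocytes summed to between 498 and 659 FPKM in control and between 20.6 and 27.2 FPKM in cKO libraries, and 4 of the 5 were called lower, with *Pgk2* and *Adam3* at 0 in cKO replicates 1 and 2. For 5 spermatid markers the control sums were 2354, 7949 and 2321 FPKM, with control replicate 2 far above the other controls, and the cKO sums lay between 2.49 and 3.48 FPKM; all 5 were called lower. The 1 of 5 in each earlier list is a share of 20.0%, near the 22.2% called lower among all genes tested. Markers of later germ cells thus moved with genotype, with 9 of 10 called lower, and their part in the results below was not tested. *Pgk2*, *Adam3* and most spermatid markers passed the filter on FPKM only through the controls, so that their calls are given as a description. Lists for Leydig, peritubular, macrophage and blood cells summed to at most 13.96 FPKM in any library, and the Sertoli list to between 12.9 and 20.3 FPKM in control and to 36.5, 13.8 and 19.1 FPKM in the cKO libraries. Of the Sertoli markers, *Rhox5* was called higher in cKO cells, a call lost in 6 of the 14 alternatives in which it was tested, among them those without control replicate 1 or 2 (adjusted p 0.083 and 0.066) and without cKO replicate 1 or 3 (0.084 and 0.087). In such bulk samples, fewer cells of a type and less RNA per cell cannot be told apart.

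For most respiratory chain genes no difference was called. Of the 91 members tested, 15 were lower and 7 were higher in cKO cells (limma on log2(FPKM + 1), adjusted p at most 0.05 over all 15451 genes tested). These shares of 16.5% and 7.69% compare with 22.2% lower and 11.8% higher among all genes tested. In 18 members all cKO libraries lay below all controls and in 14 all lay above, against 28.6% and 21.8% of all genes, and 59 members overlapped. The median log2 fold change was 0.018 for the members and -0.0082 for all genes. For 61 members the 95% confidence interval of the log2 fold change stayed within 0.5 in both directions, against 5613 of all 15451 genes tested. The members were more abundant, with a median control level of 48.4 FPKM against 7.27 FPKM for all genes tested. The part of level in the width of the intervals was not tested. An absolute log2 fold change over 1 was found in 4 members, against 2229 of all genes tested. These 4 were *Cox8c*, *Ndufaf3*, *Ndufa4l2* and *Cox6b2*, and all were lower.

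The number of calls depended on the filter, the libraries and the scaling. With no filter on FPKM, 9 members were lower and 3 higher, and the 10 calls lost were those of *Cox4i2*, *Cox6b1*, *Cox7a2*, *Cox7b2*, *Ndufa8*, *Ndufa12*, *Ndufs7*, *Uqcrq*, *Uqcr10* and *Atp5j* (adjusted p 0.059 to 0.15). The lower count was 10 without control replicate 1, and the higher count was 13 without control replicate 2 and 4 without cKO replicate 1. Quantile normalization, which moved the median over all genes tested to a log2 fold change of 0.20, gave 13 lower and 25 higher members, and FPKM without the authors' factor per library gave 14 and 15. Under quantile normalization 7 of the higher members belonged to complex I, 1 to complex II, 3 to complex III, 8 to complex IV and 4 to complex V, and 2 were *Ndufaf* factors. Under both scalings the lower count stayed close to 15, so that the balance of higher and lower calls depends on the scaling.

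**Figure D1:**
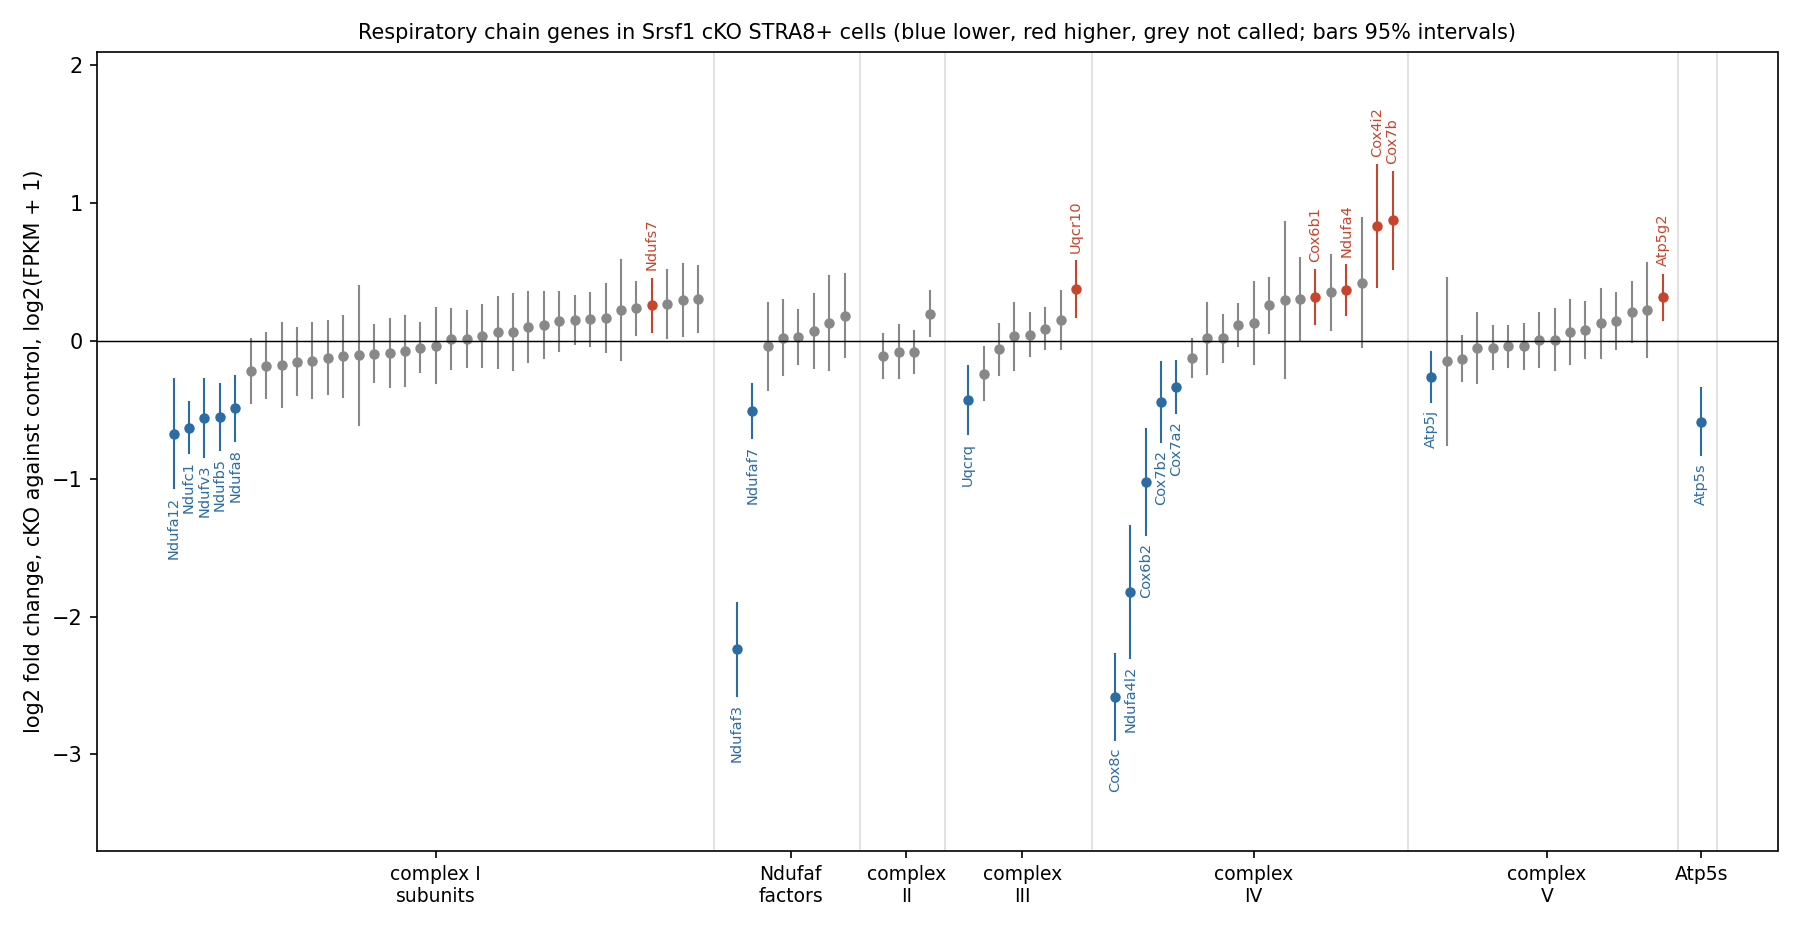
Log2 fold change of each of the 91 tested members, cKO against control, on the log2(FPKM + 1) scale (vertical axis), grouped by complex and ordered by value within each group; points are limma estimates and bars their 95% confidence intervals. The members called lower (blue, 15) reach -2.58 for *Cox8c*, those called higher (red, 7) reach 0.87 for *Cox7b*, and most grey points lie near 0.

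Summed over all members, expression came to 5408 ± 235 FPKM in control and 5401 ± 132 FPKM in cKO cells (SD, n = 3). Complex I subunits summed to 1660 ± 52.2 and 1694 ± 104 FPKM, complex II to 204 ± 8.32 and 205 ± 7.11 FPKM, complex III to 624 ± 25.6 and 651 ± 20.5 FPKM, and complex V to 1091 ± 49.1 and 1099 ± 22.6 FPKM. Complex IV summed to 1657 ± 119 FPKM in control and 1622 ± 28.6 FPKM in cKO cells. In each of these the libraries of the groups overlapped. The sum of the *Ndufaf* assembly factors fell outside the control range, at 163, 161 and 155 FPKM in control and 126, 131 and 114 FPKM in the cKO libraries. The means differed by about as much as those of *Ndufaf3* alone, which were 45.5 ± 4.09 FPKM in control and 8.94 ± 1.83 FPKM in cKO cells. A sum of FPKM is dominated by the most abundant members, which in control cells were *Cox6a1* (277 ± 42.8 FPKM), *Cox4i1* (207 ± 18.3 FPKM), *Ndufa1* (188 ± 25.5 FPKM), *Cox8c* (182 ± 29.9 FPKM) and *Cox7c* (166 ± 2.94 FPKM). In cKO cells *Cox6a1*, *Cox4i1*, *Ndufa1* and *Cox7c* stood at 339 ± 27.1, 248 ± 8.49, 221 ± 39.5 and 181 ± 7.72 FPKM, none of them called. *Cox4i1* and *Cox7c* did not overlap between groups and had adjusted p-values of 0.052 and 0.21. Without control replicate 2, *Cox4i1* and *Cox6a1* were called higher (adjusted p 0.018 and 0.026), and under quantile normalization *Cox4i1* and *Cox7c* were (0.018 and 0.024).

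**Figure D2:**
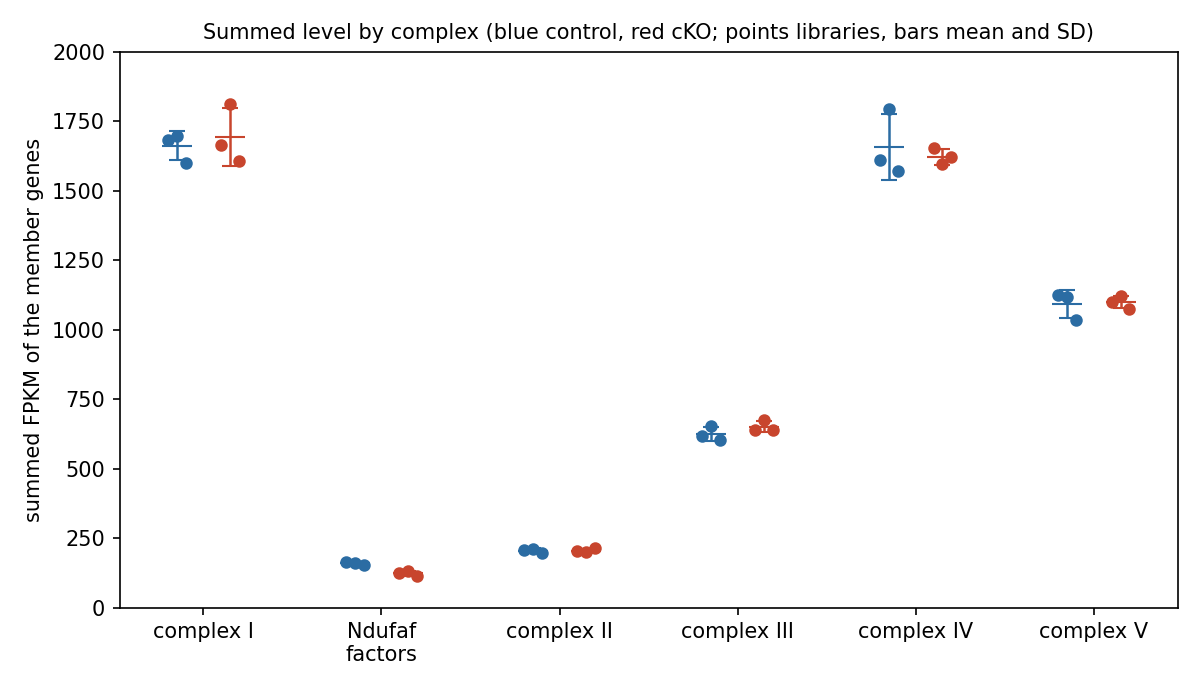
Summed FPKM of the member genes of each complex (vertical axis) in every library; points are the 3 control (blue) and 3 cKO (red) libraries, and bars show mean and SD. The groups overlap for complexes I to V, and the *Ndufaf* factors stand apart with means of 160 FPKM in control and 124 FPKM in cKO cells.

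Within complex IV, 5 of 19 tested members were lower (26.3%, against 22.2% of all genes tested) and 4 were higher (21.1%, against 11.8%). The lower count was 3 without control replicate 1, without cKO replicate 3 and with no filter on FPKM. The higher count was 7 without control replicate 2, 8 under quantile normalization, and 2 without cKO replicate 1 and with no filter. The 4 higher members include *Cox4i2*, which passed the filter on FPKM only through the cKO libraries. The 5 lower members include *Ndufa4l2*, which passed it only through the control libraries. The lower ones included the testis isoforms *Cox8c*, *Cox6b2* and *Cox7b2*, and the higher ones included *Cox6b1* and *Cox7b*, the broadly expressed partners of 2 of them. Complex IV is the oxidase at the end of the chain, and these subunits surround its catalytic core, which is encoded in mitochondria. Without the 8 paralogs of restricted expression, the other 12 complex IV genes summed to 1310 ± 102 FPKM in control and 1488 ± 17.1 FPKM in cKO cells, and here every cKO library (1468 to 1500 FPKM) lay above every control library (1227 to 1424 FPKM).

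*Cox8c* (ENSMUSG00000043319, plus strand, chr12:102899316-102900526 in GRCm38) encodes the testis form of subunit 8, a small membrane-spanning subunit. Its level was 205, 193 and 148 FPKM in the controls and 31.5, 27.1 and 29.3 FPKM in the cKO libraries. All control libraries were several times above all cKO libraries, and the control mean was 6.21 times the cKO mean. The log2 fold change was -2.58 ± 0.13 (SE, n = 3 per group, limma adjusted p = 1.7e-05). It lay between -2.72 and -2.49 in the 15 alternatives. The broadly expressed *Cox8a* stood at 138, 175 and 142 FPKM in control and 200.5, 175 and 204.5 FPKM in the cKO libraries, with an adjusted p of 0.052 and overlapping groups. It was called higher in 6 of the 15 alternatives, among them the fit without control replicate 2 (adjusted p 0.013) and that without cKO replicate 2 (0.046). *Cox8c* thus made up 59.8%, 52.4% and 51.0% of the summed FPKM of *Cox8a* and *Cox8c* in the controls and 13.6%, 13.4% and 12.5% in the cKO libraries. The muscle form *Cox8b* was near the filter in both groups (0.745 ± 0.304 and 1.34 ± 0.355 FPKM, not called).

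*Cox6b2* and *Cox6b1* encode the testis and the general form of subunit 6B, which faces the intermembrane space where cytochrome c docks. *Cox6b2* (ENSMUSG00000051811, minus strand, chr7:4751792-4753094) stood at 69.3, 84.4 and 64.2 FPKM in the controls and at 43.7, 33.1 and 29.7 FPKM in the cKO libraries. The groups did not overlap, and the log2 fold change was -1.02 ± 0.16 (SE, n = 3 per group, limma adjusted p = 0.0032). *Cox6b1* (chr7:30616861-30626151, minus strand) moved the other way, with 76.4, 91.1 and 83.8 FPKM in control and 108, 106 and 99.6 FPKM in the cKO libraries. Its groups did not overlap either (log2 fold change 0.32 ± 0.083, limma adjusted p = 0.024), but this call was lost when any library except control replicate 2 was left out, with adjusted p of 0.073 without control replicate 1, 0.071 without control replicate 3, and 0.077, 0.062 and 0.051 without cKO replicates 1, 2 and 3. The share of *Cox6b2* in the pair was 46.3% ± 2.57 in control and 25.2% ± 3.15 in cKO cells (SD, n = 3).

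*Cox7b2* and *Cox7b* encode forms of subunit 7B. In this pair the testis form was the major one in both groups. *Cox7b2* (ENSMUSG00000049387, minus strand, chr5:71442824-71548205) stood at 93.2, 77.3 and 71.5 FPKM in control and 65.9, 57.5 and 53.4 FPKM in the cKO libraries, without overlap but with the lowest control close to the highest cKO library (log2 fold change -0.44 ± 0.12, limma adjusted p = 0.030). That call was lost without control replicate 1 or 2 (adjusted p 0.077 and 0.052) and without cKO replicate 2 or 3 (0.078 and 0.10). *Cox7b* (ENSMUSG00000031231, plus strand, chrX:106015700-106022450) rose from 6.001, 7.04 and 4.67 FPKM in control to 10.96, 10.7 and 13.1 FPKM in the cKO libraries. All cKO libraries lay above all controls (log2 fold change 0.87 ± 0.15, limma adjusted p = 0.0045), and the call held in all 15 alternatives. The other 2 members on the X chromosome were not called, with log2 fold changes of 0.22 ± 0.15 for *Ndufa1* (adjusted p = 0.30) and 0.24 ± 0.081 for *Ndufb11* (0.060). *Cox7b2* made up 93.2% ± 1.31 of the pair in control and 83.5% ± 2.79 in cKO cells.

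The sequences before the starts of *Cox6b1* and *Cox6b2* and of *Cox7b* and *Cox7b2* are shown, since each pair holds a testis form called lower and a general form called higher. Each is the 250 bases before the RefSeq start of the gene in GRCm38.p6, written 5′ to 3′ on the strand of the gene, with every CG dinucleotide in capitals. They lie at chr7:30626115-30626364 (minus strand), chr7:4753095-4753344 (minus strand), chrX:106015450-106015699 (plus strand) and chr5:71548206-71548455 (minus strand).
Cox6b1: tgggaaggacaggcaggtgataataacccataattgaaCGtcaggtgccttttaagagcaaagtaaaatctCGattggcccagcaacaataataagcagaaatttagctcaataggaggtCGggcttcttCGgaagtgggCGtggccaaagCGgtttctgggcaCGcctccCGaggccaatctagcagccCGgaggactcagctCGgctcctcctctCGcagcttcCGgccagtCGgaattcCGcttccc
Cox6b2: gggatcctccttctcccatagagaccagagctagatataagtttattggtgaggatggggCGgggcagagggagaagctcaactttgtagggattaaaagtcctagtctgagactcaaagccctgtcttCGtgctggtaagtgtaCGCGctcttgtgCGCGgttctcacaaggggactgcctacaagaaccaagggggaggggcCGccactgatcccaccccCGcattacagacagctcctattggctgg
Cox7b: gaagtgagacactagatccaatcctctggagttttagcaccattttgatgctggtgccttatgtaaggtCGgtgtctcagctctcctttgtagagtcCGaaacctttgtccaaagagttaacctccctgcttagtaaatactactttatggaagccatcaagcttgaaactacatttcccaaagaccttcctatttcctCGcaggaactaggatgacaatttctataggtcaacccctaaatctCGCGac
Cox7b2: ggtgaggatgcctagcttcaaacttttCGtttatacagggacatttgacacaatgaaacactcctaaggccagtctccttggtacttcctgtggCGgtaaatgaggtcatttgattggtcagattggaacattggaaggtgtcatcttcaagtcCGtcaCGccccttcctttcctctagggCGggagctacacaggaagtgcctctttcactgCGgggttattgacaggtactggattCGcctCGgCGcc

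The windows of *Cox6b1* and *Cox6b2* had nearly the same GC content (54.0% and 54.8%) but 14 and 8 CG dinucleotides, and those of *Cox7b* and *Cox7b2* had 5 and 9 (GC content 43.6% and 50.4%).

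**Figure D3:**
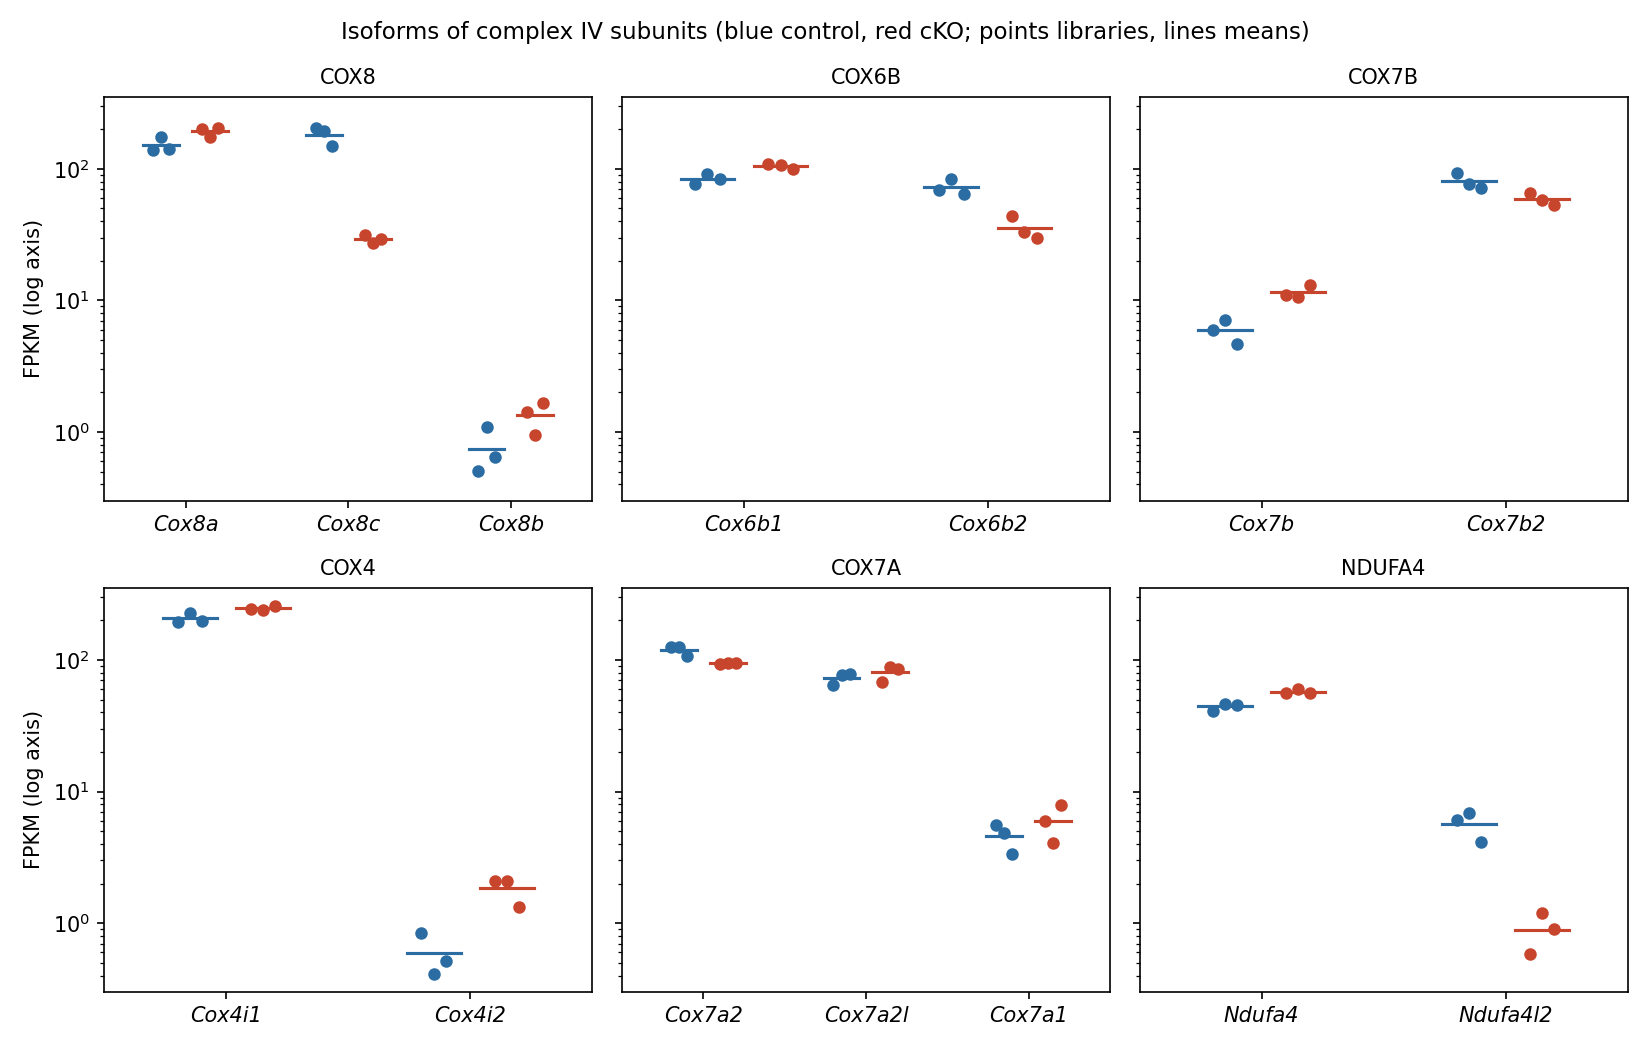
FPKM (vertical log axis) of the genes of 6 complex IV isoform families in every library; points are the 3 control (blue) and 3 cKO (red) libraries, and lines the group means. *Cox8c*, *Cox6b2*, *Cox7b2* and *Ndufa4l2* lie lower in cKO cells, while *Cox6b1*, *Cox7b*, *Cox4i2* and *Ndufa4* lie higher.

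*Ndufa4* and *Ndufa4l2* formed a further pair that moved in opposite directions. *Ndufa4l2*, a paralog known from the response to low oxygen, fell from 6.10, 6.85 and 4.17 FPKM in control to 0.581, 1.18 and 0.901 FPKM in the cKO libraries, with 10 to 115 fragments per library behind these values. The groups were far apart, with a control mean 6.42 times the cKO mean and, on the log2(FPKM + 1) scale, which understates changes of low genes, a log2 fold change of -1.82 ± 0.20 (SE, n = 3 per group, limma adjusted p = 6.0e-04). The cKO mean was 0.889 FPKM. The gene thus reached the mean of 1 FPKM required for testing only through the control libraries, and its call is given as a description. *Ndufa4* itself rose from 40.9, 46.7 and 45.5 FPKM to 56.4, 60.4 and 55.9 FPKM (log2 fold change 0.37 ± 0.076, limma adjusted p = 0.0097), again without overlap. *Ndufa4l2* had 11.4% ± 2.60 of the pair in control and 1.51% ± 0.457 in cKO cells.

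The remaining isoform families were carried by their general forms in both groups. *Cox4i2*, known from lung and from low oxygen, was low throughout, at 0.847, 0.414 and 0.514 FPKM in control and 2.0999, 2.08 and 1.34 FPKM in the cKO libraries (log2 fold change 0.83 ± 0.19, limma adjusted p = 0.014). These values rest on 5 to 26 fragments per library. The control mean was 0.592 FPKM, so that the gene reached the mean of 1 FPKM required for testing only through the cKO libraries, and its call is given as a description. It was lost with no filter on FPKM (adjusted p 0.062) and without cKO replicate 1 or 2 (0.051 in both). *Cox4i2* was 0.291% ± 0.130 of the COX4 pair in control and 0.741% ± 0.194 in cKO cells. *Cox7a2*, the general form of subunit 7A, fell from 120 ± 10.5 to 94.9 ± 1.01 FPKM (log2 fold change -0.33 ± 0.080, limma adjusted p = 0.018), a call lost without control replicate 1 (0.064) and without cKO replicate 1 or 3 (0.057 and 0.061). The muscle form *Cox7a1* (4.596 ± 1.13 and 5.97 ± 1.89 FPKM) and *Cox7a2l*, a factor of supercomplex assembly (73.4 ± 7.89 and 80.6 ± 10.9 FPKM), were not called. *Cox6a2*, the heart and muscle form of subunit 6A, was not tested, at 0.186 FPKM in control and 0.0657 FPKM in cKO cells.

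Across 8 pairs, including cytochrome c, 6 had shares that did not overlap between the groups and therefore an exact two-sided permutation p of 0.1, the smallest that 3 against 3 libraries allow. Adjusted by Benjamini-Hochberg over the 8 pairs, this permutation p was 0.13. Among single genes, all cKO libraries lay below all controls in 28.6% of those tested and above in 21.8%. The share of the restricted form was lower in cKO cells in 5 of these 6 pairs (*Cox8c*, *Cox6b2*, *Cox7b2*, *Ndufa4l2* and *Cyct*) and higher for *Cox4i2*. *Cox7a1* relative to *Cox7a2* and *Cox6a2* relative to *Cox6a1* gave an exact p of 0.2. *Cyct*, the testis cytochrome c, stood at 55.2, 35.6 and 37.6 FPKM in control and at 21.1, 19.3 and 29.6 FPKM in the cKO libraries (log2 fold change -0.84 ± 0.21, limma adjusted p = 0.021). Its call was lost with no filter on FPKM (adjusted p 0.14), without control replicate 1 (0.051) and without cKO replicate 1 or 2 (0.071 and 0.066). *Cyct* made up 67.1% ± 3.67 of the summed FPKM of *Cyct* and *Cycs* in control and 48.3% ± 5.85 in cKO cells. *Cycs* was at 20.5 ± 1.64 and 24.6 ± 0.646 FPKM, with an adjusted p of 0.048. It exceeded 0.05 with no filter on FPKM (0.10) and when any library except control replicate 1 was left out (0.089 to 0.13).

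**Figure D4:**
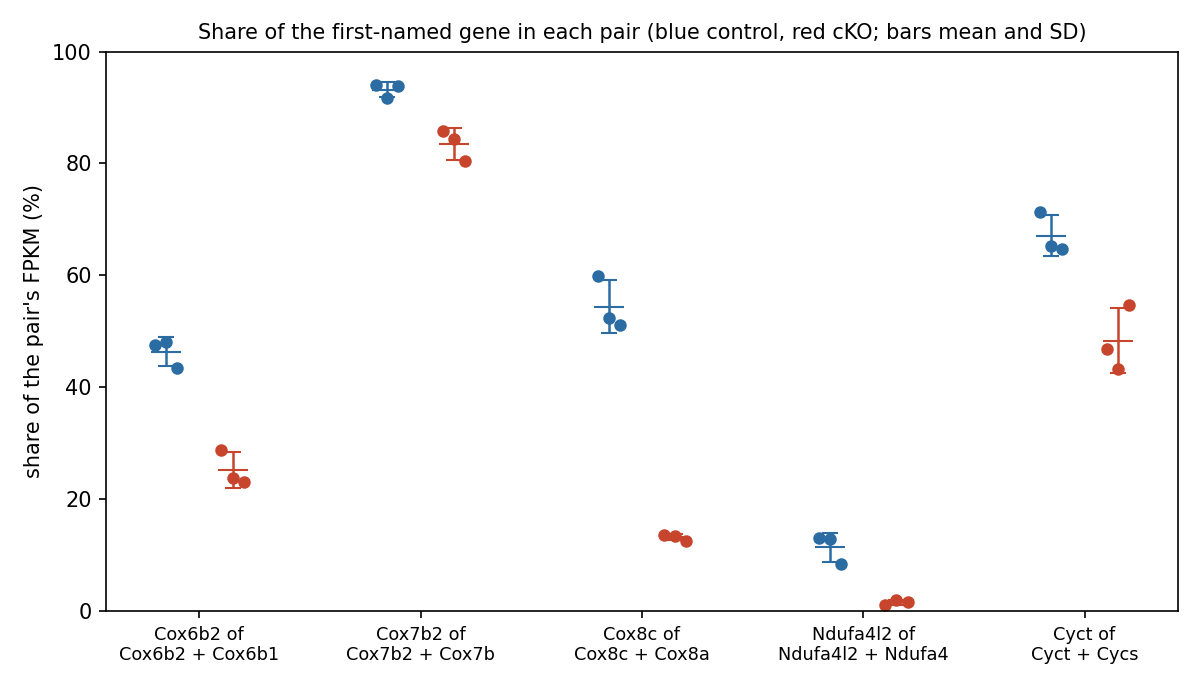
Share of the first-named gene in the summed FPKM of each pair (vertical axis, percent) in every library; points are the 3 control (blue) and 3 cKO (red) libraries, and bars show mean and SD. The share of *Cox8c* lies between 51.0% and 59.8% in control and between 12.5% and 13.6% in cKO libraries.

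Promoter windows from 250 bases before to 50 after the RefSeq start were found for 74 members. The motif GCGCATGCG, named for NRF1, a factor known to drive respiratory chain genes, occurred on either strand in 10 of them (13.5%), against 3.98% of 9717 tested protein-coding genes and 1.75% of all 32851 windows. The motif AAGATGGCG, named for YY1, occurred in 7 members (9.46%), against 3.31% and 1.40%. CCGGAAGT, named for GABP and other ETS factors, occurred in 5 members (6.76%), against 8.87% and 3.89%. None of these motifs contains another, and none of the 3 was found in the 4 sequences printed. Among the members called, the windows of *Ndufa8* and *Atp5g2* held the NRF1 motif and those of *Ndufc1* and *Ndufs7* the YY1 motif, with calls in both directions for each. Their regulators were measured as well. Of 10 regulators of the pathway, 8 were tested and none was called by limma, while 1 was called lower with a pseudocount of 0.1, with a minimum of 5 FPKM and by limma-voom on recovered fragments, and 5 were called higher under quantile normalization. Leaving out control replicate 2 or 3 also gave 1 lower regulator, and leaving out cKO replicate 2 gave 1 higher. *Nrf1* stood at 7.37 FPKM in both groups, *Gabpa* at 20.3 and 21.9 FPKM and *Yy1* at 20.2 and 20.5 FPKM in control and cKO cells. *Tfam*, which packages and transcribes mitochondrial DNA, came nearest, with 15.5 FPKM in control and 10.2 FPKM in cKO cells (adjusted p = 0.052). At an unadjusted p of 0.05, 2 of the 8 passed, against 6929 of all 15451 genes tested.

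Complex I had 5 lower (14.3%) and 1 higher (2.86%) of 35 tested subunits, against the 22.2% and 11.8% of all genes. The higher count was 3 without control replicate 2, 5 without the authors' factor and 7 under quantile normalization, and with no filter on FPKM 3 were lower and 0 higher. All 5 lower genes encode accessory subunits, as do all of the 35 tested except the 7 core subunits. *Ndufc1*, a small membrane subunit, stood at 36.1, 32.1 and 32.4 FPKM in control and 20.05, 22.2 and 21.8 FPKM in the cKO libraries, well apart (log2 fold change -0.63 ± 0.078, SE, n = 3 per group, limma adjusted p = 0.0010). *Ndufb5*, of the membrane arm, was at 12.0, 9.94 and 9.92 FPKM and 6.77, 7.29 and 6.68 FPKM, also without overlap (-0.55 ± 0.10, limma adjusted p = 0.0061), although 12.3% of its exon bases lie over *Mrpl47* on the other strand. These 2 calls held in all 15 alternatives. *Ndufa12* fell by 0.67 on the log2 scale (limma adjusted p = 0.021), *Ndufv3* by 0.56 (0.011) and *Ndufa8* by 0.49 (0.0091), each with all cKO libraries below the controls. The *Ndufa12* call was lost without control replicate 1 (adjusted p 0.057) and without cKO replicate 1 or 3 (0.066 and 0.069), and 88.6% of its 100-base windows occur in no other gene. The *Ndufv3* call was lost under quantile normalization (log2 fold change -0.27, adjusted p 0.089), and the *Ndufa8* call with no filter on FPKM (0.059). *Ndufs7*, a core subunit with an iron-sulfur cluster, was the only one called higher (41.0 ± 3.61 and 49.2 ± 1.77 FPKM, log2 fold change 0.26 ± 0.082, limma adjusted p = 0.049). That call was lost when any library except control replicate 2 was left out (adjusted p 0.098 to 0.13). No other of the 7 core subunits encoded in the nucleus was called. *Ndufb2*, at 1.02 ± 0.0369 and 0.911 ± 0.123 FPKM, fell just short of the mean of 1 FPKM required for testing.

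Among the 8 *Ndufaf* assembly factors, 2 were lower, a share near the 22.2% of all genes tested. *Ndufaf3* (ENSMUSG00000070283, minus strand, chr9:108565537-108567434), which acts with *Ndufaf4* in the early assembly of the matrix arm, stood at 50.2, 43.4 and 42.9 FPKM in control and at 10.8, 7.19 and 8.81 FPKM in the cKO libraries. The groups were far apart, with a control mean 5.09 times the cKO mean, and the log2 fold change was -2.24 ± 0.14 (SE, n = 3 per group, limma adjusted p = 4.9e-05). Only 2.64% of its exon bases lie over another gene, *Impdh2* on the other strand. *Ndufaf4*, the partner, was not called (3.59 ± 0.0270 and 4.24 ± 0.709 FPKM). *Ndufaf7*, a methyltransferase of complex I assembly, was at 13.1, 12.4 and 11.8 FPKM in control and 8.58, 7.93 and 8.88 FPKM in the cKO libraries, without overlap (log2 fold change -0.51 ± 0.082, limma adjusted p = 0.0037). Both calls held in all 15 alternatives. Of 40 assembly factors outside the rule, for all complexes, 37 were tested, 8 were lower (21.6%, against 22.2% of all genes tested) and 2 higher (5.41%, against 11.8%). Among the called factors, the largest changes were those of *Taco1*, a translational activator for COX1 (log2 fold change -0.79), *Lyrm7*, of complex III assembly (-0.71), *Ecsit* of complex I assembly (-0.51), *Uqcc2* of complex III assembly (-0.46), *Foxred1* of complex I assembly (-0.42) and *Cox14* of complex IV assembly (0.39). The *Uqcc2* call was lost with no filter on FPKM (adjusted p 0.076) and without cKO replicate 3 (0.052). That of *Foxred1* was lost with no filter (0.069), under quantile normalization (0.051), and without control replicate 3 or cKO replicate 3 (0.054 and 0.059). The lower calls of *Coa5*, *Timmdc1* and *Sdhaf2* were lost without control replicate 1 or 3 or cKO replicate 2 (adjusted p 0.079 to 0.13). The higher call of *Ttc19* was lost without control replicate 3 or cKO replicate 2 or 3 (0.052 to 0.071).

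The 4 genes of complex II, succinate dehydrogenase, were not called. *Sdha*, the flavoprotein, was at 60.1, 65.8 and 58.3 FPKM in control and 71.8, 68.4 and 71.3 FPKM in the cKO libraries, without overlap (log2 fold change 0.20, 95% interval 0.033 to 0.36, adjusted p = 0.067). *Sdhb*, *Sdhc* and *Sdhd* had log2 fold changes of -0.079, -0.11 and -0.080, and their 95% intervals all stayed above -0.28. All cKO libraries lay below all controls for *Sdhc* (35.2, 32.0 and 32.8 FPKM in control and 30.9, 30.03 and 31.6 FPKM in the cKO libraries), while *Sdhb* and *Sdhd* overlapped. At an unadjusted p of 0.05, limma found 1 of the 4, against 6929 of all 15451 genes tested, and limma-voom called none. *Sdha* was called higher under quantile normalization, without the factor per library, and without control replicate 2 (adjusted p 0.013, 0.042 and 0.033).

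In complex III, 1 of 8 subunits was lower and 1 was higher (12.5% each, against 22.2% and 11.8% of all genes tested). *Uqcrq*, a small subunit bound to cytochrome b, stood at 66.1, 66.1 and 51.8 FPKM in control and 46.0, 44.9 and 44.2 FPKM in the cKO libraries (log2 fold change -0.43 ± 0.10, limma adjusted p = 0.019). *Uqcr10*, another small subunit, stood at 88.5, 107 and 98.0 FPKM and 130, 129 and 122 FPKM (0.38 ± 0.084, limma adjusted p = 0.014). Neither overlapped between groups, but the *Uqcrq* call was lost without control replicate 1 (adjusted p 0.067) and without cKO replicates 1, 2 and 3 (0.051, 0.052 and 0.068), and with no filter on FPKM both calls were lost (0.10 for *Uqcrq* and 0.067 for *Uqcr10*).

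In complex V, the ATP synthase, 1 of 16 tested rows was lower and 1 was higher (6.25% each, against 22.2% and 11.8% of all genes tested), and for 14 the 95% interval stayed within 0.5. *Atp5j*, coupling factor 6 of the stalk, went from 28.2 ± 2.20 to 23.3 ± 0.113 FPKM (log2 fold change -0.26 ± 0.076, limma adjusted p = 0.035). That call was lost when any library except control replicate 3 was left out (adjusted p 0.058 to 0.10), and 12.7% of its exon bases lie over *Gabpa* on the other strand. The c subunit of the rotor is encoded by 3 genes with the same mature protein. Of these, *Atp5g2* was called higher, at 46.8, 47.2 and 46.2 FPKM in control and 54.9, 62.7 and 57.9 FPKM in the cKO libraries (0.32 ± 0.069, limma adjusted p = 0.013). Only 65.3% of its 100-base windows occur in no other gene, the others being shared with processed pseudogenes. *Atp5g1* (10.5 ± 2.04 and 12.3 ± 1.35 FPKM) and *Atp5g3* (41.1 ± 3.60 and 41.3 ± 1.82 FPKM) were not called. A second row named *Atp5o* was at 0 in every library and was not tested. *Atp5s*, the coupling factor kept apart, fell from 10.6, 9.70 and 11.9 FPKM to 6.24, 7.07 and 7.07 FPKM (-0.59 ± 0.10, limma adjusted p = 0.0050), a call that held in all 15 alternatives.

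The chain's other subunits are encoded in mitochondria. Of these 13 genes, 6 were higher (46.2%, against 11.8% of all genes) and none was lower by limma. At an unadjusted p of 0.05 the counts were 7 and 0, while 6929 of all 15451 genes tested passed in either direction. By limma-voom 6 were higher and none lower as well, but not the same 6, since *mt-Co2* was not called (adjusted p 0.052). The higher count was 3 under quantile normalization, 0 with no filter on FPKM, and 2, 4 and 3 without control replicates 1, 2 and 3. The median log2 fold change was 0.48. *mt-Nd4l* had the largest value (0.85 ± 0.20), followed by *mt-Nd5* (0.67 ± 0.12), *mt-Nd6* (0.63 ± 0.11), *mt-Cytb* (0.61 ± 0.15), *mt-Nd4* (0.52 ± 0.15) and *mt-Co2* (0.48 ± 0.15). In all 6 the cKO replicate 2 library was highest and no cKO library reached down to the controls. The *mt-Co2* call was lost when any library except cKO replicate 1 was left out (adjusted p 0.052 to 0.11), and that of *mt-Nd4* without any of the controls or cKO replicate 1 (0.072 to 0.089). The *mt-Cytb* call was lost without control replicate 1 or 3 (adjusted p 0.070 and 0.052), that of *mt-Nd4l* without control replicate 1 (0.062), and under quantile normalization the log2 fold change of *mt-Cytb* was 0. Of the 13 enzymes of the TCA cycle, which supplies the chain with NADH and succinate, 2 were lower and 2 higher (15.4% each, against 22.2% and 11.8% of all genes tested). *Sucla2* (log2 fold change -0.81 ± 0.074, limma adjusted p = 2.5e-04) and *Suclg1* (-0.42 ± 0.095, 0.014) encode subunits of succinyl-CoA ligase, and *Suclg2* (0.24 ± 0.076, 0.049), the GTP-forming partner, and *Mdh2* (0.40 ± 0.11, 0.032) were higher. The *Suclg1* call was lost without cKO replicate 3 (adjusted p 0.059) and under quantile normalization (0.12). That of *Suclg2* was lost without any of the 6 libraries (0.066 to 0.13), and that of *Mdh2* without control replicate 1 or 3 or cKO replicate 1 or 3 (0.093 to 0.11). With no filter on FPKM the calls of *Suclg2* and *Mdh2* were lost as well (0.052 and 0.15).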

How the data were processed

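RNA of STRA8+ cells was sequenced in 3 control and 3 cKO libraries. The authors deposited FPKM with gene lengths; per the labels' processing notes HISAT2 2.0.5 and mm10 were used, the counter and its use of strand are not given in the sources used here, and coordinates of 88 and lengths of 88 of the 94 members equal those of GENCODE M21 (GRCm38). The deposited FPKM fell on whole fragments for 100% of values (tolerance 0.05 fragments), so fragments could be recovered, and carry a factor per library that equalises their median of ratios. FPKM sum to no fixed total, and fragment totals ranged from 14447887 to 17310353.

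From the deposited FPKM, log2(FPKM + 1) was fitted for the 15451 genes that averaged 1 FPKM or more with limma 3.58.1 in R 4.3.3 (eBayes with trend, 2-sided, Benjamini-Hochberg over all genes tested, threshold 0.05). Fold changes are cKO against control on the log2(FPKM + 1) scale, which understates low genes. Scripts were tested on simulated data. Named were all members called, isoform families, complex II, the 5 most abundant members, *Srsf1*, and up to 6 called genes per pathway list. The members and lists were chosen with earlier results of these data known. Promoters are from RefSeq (GRCm38.p6). Fragment counts cover counting error only. In the 15 alternatives, the pseudocount was 0.1, there was no filter or one of 5 FPKM, the scaling changed in 3 ways, limma-voom was run on recovered fragments, the trend was dropped, a replicate block was added, or each library was left out. *Ndufb2*, *Cox6a2* and the second *Atp5o* row were under the filter.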

Additional observations from a re-analysis of the deposited data

How the results depend on the processing

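Of the 22 members called, 10 kept their call in every alternative that tested them. These were *Cox8c*, *Ndufaf3*, *Ndufa4l2*, *Cox6b2*, *Ndufc1*, *Atp5s*, *Ndufb5* and *Ndufaf7*, which were lower, and *Cox7b* and *Ndufa4*, which were higher. Of these, *Ndufa4l2* passed the filter on FPKM only through the control libraries and was not tested with the filter of 5 FPKM. With no filter on FPKM, 9 members were lower and 3 higher. Quantile normalization gave 25 higher members and moved the members' median log2 fold change to 0.12 and that of all genes to 0.20, and FPKM without the authors' factor gave 15 higher. Leaving out 1 library in turn gave 10 to 15 lower and 4 to 13 higher members and medians from -0.03 to 0.04. Uncalled values turned sign for *Sdhb* (0.022) and *Sdhd* (0.013) under quantile normalization, and for *Atp5g3* under limma-voom (-0.016), without control replicate 3 (-0.059) and without cKO replicate 1 (-0.021), with a range from -0.059 to 0.064 over the libraries left out. The cause of these changes was not tested. Scaling by the median of ratios changed nothing, since the deposited FPKM already have equal factors by that measure.

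No pairing of the libraries by replicate number was seen, although 3 libraries per group cannot exclude one. Deviations from the group means of libraries with the same number had correlations across genes of -0.0014, -0.11 and 0.016. With the replicate block, 13 members were lower and 4 higher. Depth limits *Cox4i2* and *Ndufa4l2*, which rest on as few as 5 and 10 fragments in a library.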
